A study of Mus musculus with 3 samples.

Results

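The Th2 cytokine locus and Gata3 were examined for binding of the transcription factors BACH2 and JunD in mouse induced regulatory T cells (iTreg cells). Members were all peaks, in the lists the authors deposited, that overlapped either of 2 windows of the mm9 genome. One window, named for Il4, Il13, Rad50 and Il5, ran from 53400000 to 53560000 on chromosome 11 (160 kb), and the other, named for Gata3, from 9700000 to 9880000 on chromosome 2 (180 kb). They held 12 of the 14370 peaks of the series, which were 8 of 9133 BACH2 peaks and 4 of 5237 JunD peaks. The cells were CD4+ T cells from spleens of C57BL/6 mice (wild type, 8 to 12 weeks of age), sorted and then cultured for 4 days with TGF-β on plates coated with antibodies to CD3ε and CD28, and all libraries of the series share this treatment. There was 1 library for BACH2, 1 for JunD and 1 for input. The input was not analysed here. The lists hold peaks and no reads, so the depth behind a peak is unknown and no value below has a replicate error. The identity of the cells could not be checked, since the lists hold no expression.

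Il4, Il13 and Il5 encode the cytokines that define T helper 2 (Th2) cells. Rad50, which encodes a DNA repair protein, lies between Il13 and Il5 and is known to carry in its 3′ part a locus control region for the cytokine genes. Gata3 encodes the transcription factor that directs Th2 differentiation and opens this locus. BACH2 is a basic leucine zipper repressor known to restrain Th2 cytokine expression in T cells, and JunD is a subunit of AP-1, a family of dimers known to take part in switching on cytokine genes in activated T cells. Both factors recognise related DNA motifs.

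In the RefSeq table of GRCm38, another mouse build, the named genes of the first window follow each other as Il4, Il13, Rad50 and Il5, with a ribosomal protein pseudogene, Rps2-ps4, between Il13 and Rad50. Kif3a, a kinesin motor gene, precedes them and Irf1, an interferon response factor gene, follows. No mm9 annotation or sequence was used. Peaks are therefore given by position, and their distance to genes, their place in exons, introns or the locus control region, and their motifs were not analysed here. A peak called a Gata3 or cytokine peak below, or said to be at Gata3, is one that overlaps the window of that name.

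BACH2 was found at 5 sites in the Th2 cytokine window and JunD at 2, and both JunD sites were BACH2 sites. In the whole lists, a peak of the other factor was present by at least 1 bp at 48.8% of JunD peaks and 29.3% of BACH2 peaks. The sites bound by both factors formed a pair less than 2 kb apart and held the strongest BACH2 peaks of either window. At Gata3, BACH2 was found at 3 sites and JunD at 2. There the factors met within a single JunD peak, the strongest JunD peak of either window, which covered 2 BACH2 peaks of moderate to low strength.

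**Figure D1:**
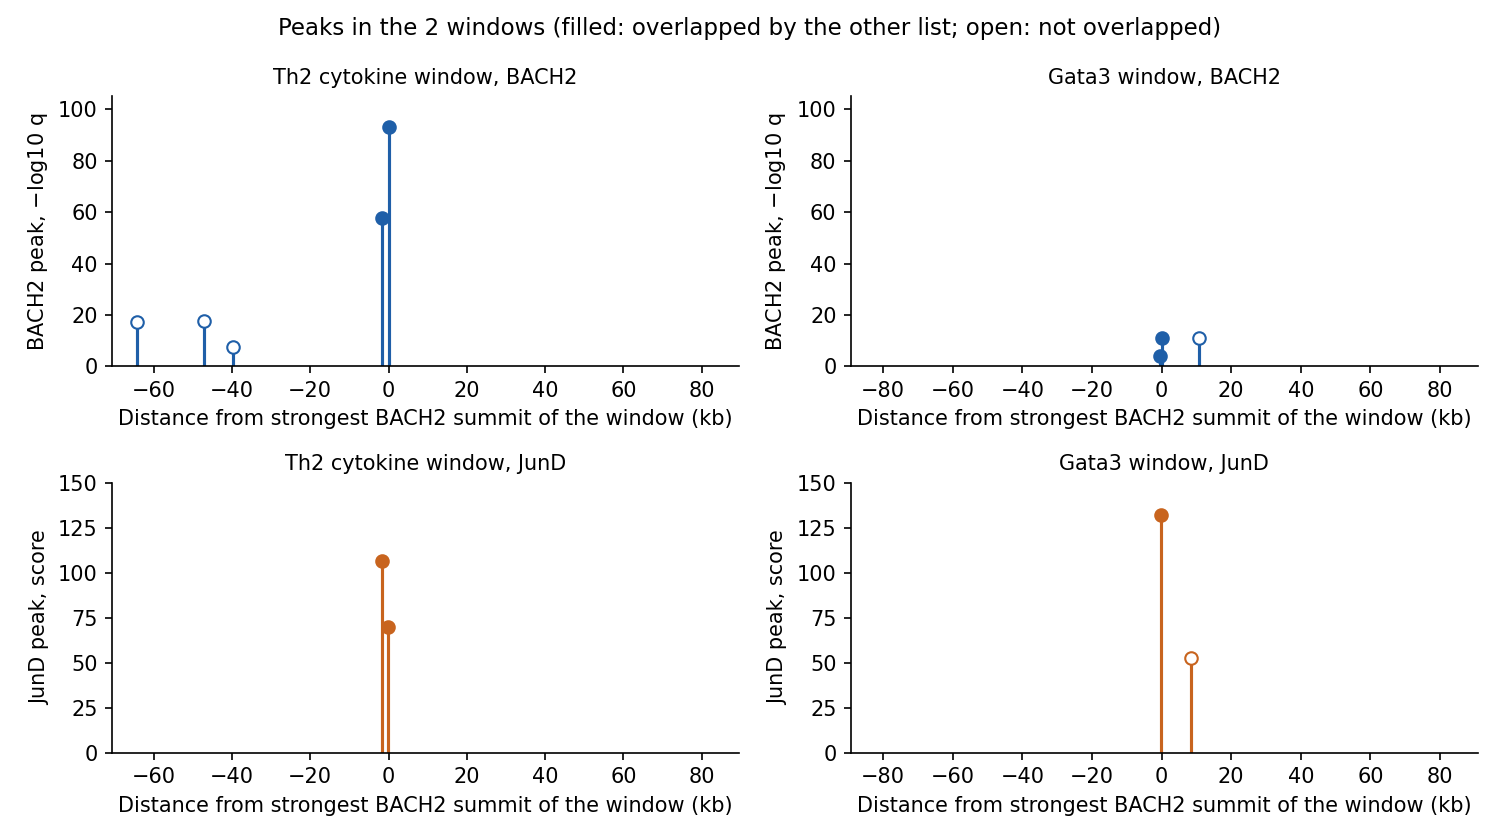
BACH2 peaks by −log10 q (upper panels) and JunD peaks by score (lower panels) against distance in kb from the strongest BACH2 summit of each window; every panel spans its whole window. Filled points overlap a peak of the other factor and open points do not; in the Th2 cytokine window all peaks lie at or to the left of the shared pair, and in the Gata3 window all lie within 11.4 kb.

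The strongest BACH2 peak of the Th2 cytokine window lay from 53470282 to 53470724 (443 bp). Its fold enrichment over the peak caller's background was 17.4, and its −log10 q, the caller's significance after adjustment for multiple testing, was 93.2. Ranked by −log10 q it was number 300 of 9133, in the top 3.28% of the BACH2 list. The JunD peak there ran from 53470205 to 53470864 (660 bp) with a score of 69.9, below the JunD list median of 81.6, and ranked 3320 of 5237. The BACH2 summit was 15 bp from the centre of this JunD peak, compared with a median of 55 bp over all 2677 overlapping pairs. One of the stronger BACH2 sites of the series thus met a JunD peak from the weaker 50% of its list.

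The other site of the pair carried a BACH2 peak from 53468664 to 53469049 (386 bp), enriched 13.6-fold with a −log10 q of 57.8. It ranked 734, in the top 8.04% of BACH2 peaks. Its JunD peak, from 53468576 to 53469084 (509 bp), had a score of 106.7 and ranked 1700, in the top 32.5% of JunD peaks. Summit and centre were 27 bp apart. The order of the factors' strengths was therefore opposite at the 2 sites, BACH2 being stronger at the upper position and JunD at the lower. Neither order has a replicate check.

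The pair was closely spaced, with 1692 bp between BACH2 summits and 1704 bp between JunD centres. Both BACH2 peaks lay wholly inside their JunD peak and covered 75.8% and 67.1% of it. JunD peaks were also the wider ones in the whole lists, with a median of 553 bp against 267 bp for BACH2. In the whole series, 894 pairs of neighbouring BACH2 summits lay within 2 kb of each other, and in 89 of them each summit's peak met a JunD peak of its own. The stronger BACH2 peak met the weaker JunD peak in 31 of these 89 pairs (34.8%), of which the cytokine pair is one. A low JunD score at a strong BACH2 site was also found elsewhere. Of the 252 BACH2 peaks among the strongest 5% that met JunD, 82 (32.5%) met a JunD peak scoring below the list median. By definition, 50% of all JunD peaks score below it.

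**Figure D2:**
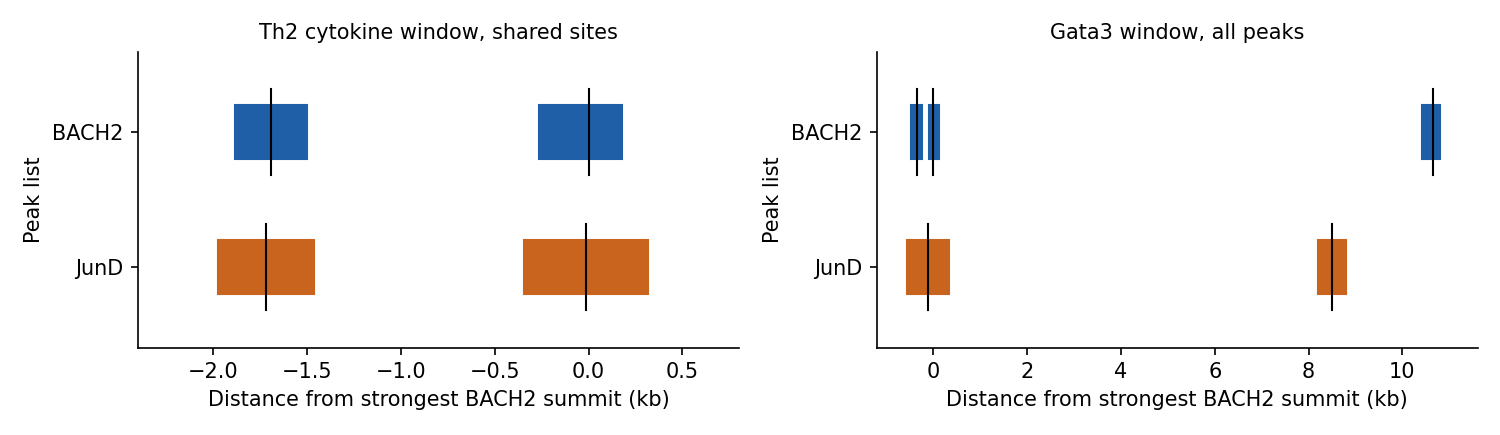
Extent of BACH2 (blue) and JunD (orange) peaks at the shared pair of the Th2 cytokine window (left) and over the occupied part of the Gata3 window (right), in kb from the strongest BACH2 summit; black lines mark BACH2 summits and JunD centres. On the left each BACH2 peak has a JunD peak of its own, with summit and centre 15 and 27 bp apart, and on the right 1 JunD peak covers 2 BACH2 peaks.

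The remaining BACH2 peaks of the Th2 cytokine window had no JunD peak. They lay at lower coordinates than the pair. If mm9 runs as the RefSeq table does, this is the side towards Il4 and, before it, Kif3a, and the peaks were assigned to neither gene. Their positions were 53406078 to 53406434, 53423247 to 53423762 and 53430776 to 53430987. The first was enriched 7.94-fold, at a −log10 q of 17.1. The second was similar, at 7.87-fold and a −log10 q of 17.5, and at 516 bp was the widest BACH2 peak of either window. The third was weaker, at 5.27-fold and a −log10 q of 7.62, below the list median of 11.8. All 3 were weaker than both shared peaks, and their ranks ran from 3170 to 6389. The nearest JunD centre was 37959 to 62611 bp away and belonged to the shared pair in each case. Such distances are common in the list, as 45.7% to 55.8% of the 6459 BACH2 peaks without JunD had a JunD centre as near.

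From first to last, the peaks of the Th2 cytokine window spanned 64.8 of its 160 kb. No peak of either factor was listed in its last 89.1 kb, above the shared pair, and the first peak began 6.08 kb inside it. Just below the window a further BACH2 peak without JunD was found at 53398465 to 53398654, 1.35 kb outside, with a fold enrichment of 5.18. Just above it, the nearest peak was a JunD peak without BACH2 at 53576413 to 53577166, 16.4 kb outside, with a score of 160.7, higher than any member. The nearest BACH2 peak above was 33.2 kb outside. Below the window, the nearest JunD peak was 285.4 kb away.

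At Gata3, the strongest JunD peak of either window lay from 9788677 to 9789569 (893 bp). It had a score of 132.2 and ranked 1194, in the top 22.8% of the JunD list. It covered a BACH2 peak from 9788765 to 9788994 that was enriched 3.30-fold, at a −log10 q of 3.90. It also covered a BACH2 peak from 9789133 to 9789353 that was enriched 4.88-fold, at a −log10 q of 11.1. The first ranked 8567 of 9133 and was among the weakest BACH2 peaks of the series, and the second, at rank 4802, was near the middle.

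The BACH2 peaks under this JunD peak were 138 bp apart, edge to edge, with 346 bp between summits. Their summits fell on either side of the JunD centre, at 235 bp below and 111 bp above it, both farther than the list median of 55 bp. They covered 25.8% and 24.7% of the JunD peak. JunD peaks that hold 2 or more BACH2 peaks were uncommon, at 110 of 2557 shared JunD peaks. A score at or above that of the Gata3 peak was found for 798 shared JunD peaks. Of these, 260 (32.6%), the Gata3 peak among them, met only BACH2 peaks below the BACH2 list median. By definition, 50% of all BACH2 peaks lie below it.

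The other members at Gata3 lay close to each other without overlap. A JunD peak from 9797436 to 9798020 had a score of 52.7, close to the lowest score in the list, 50, and ranked 4925 of 5237. A BACH2 peak from 9799646 to 9800033 was 388 bp wide, enriched 6.20-fold, at a −log10 q of 10.9. By fold it was the strongest BACH2 peak of the Gata3 window, while by −log10 q it was just below the one at 9789133. Summit and centre of this BACH2 and this JunD peak were 2149 bp apart. Of the 2680 JunD peaks without BACH2, 10.3% had a BACH2 summit as near, and of the BACH2 peaks without JunD, 7.57% had a JunD centre as near.

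All peaks of the Gata3 window fell within 11.4 kb, from 9788677 to 9800033. No peak of either factor was listed in the 88.7 kb of the window below them or the 80.0 kb above. Beyond the window, the nearest peaks were a JunD peak of score 69.3, 88.4 kb below it, and a BACH2 peak of 3.15-fold, 94.2 kb below it. Above it, the nearest were a BACH2 and a JunD peak that overlapped, 392.8 and 392.9 kb away. The Gata3 peaks thus stood apart from other listed sites on both sides, but long gaps are common in these lists. Of 14591 stretches of 180 kb over all chromosomes, 73.9% held no BACH2 peak and 81.6% no JunD peak.

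Comparing the windows, the strongest BACH2 peaks lay in the Th2 cytokine window and the strongest JunD peak in the Gata3 window. The −log10 q of the 5 BACH2 peaks in the Th2 cytokine window was 17.1, 17.5, 7.62, 57.8 and 93.2, and that of the 3 at Gata3 was 3.90, 11.1 and 10.9. The ranges overlap, since the weakest cytokine peak was below the 2 stronger Gata3 peaks. By −log10 q, all 3 Gata3 peaks were below the list median of 11.8, and 4 of 5 cytokine peaks were above it. By fold, the Gata3 peak at 9799646 was above the list median, at 6.20 against 5.75. The others at Gata3 were below that median, at 3.30 and 4.88. JunD scores were 106.7 and 69.9 in the Th2 cytokine window and 132.2 and 52.7 at Gata3, so the Gata3 scores lay on either side of the cytokine scores. With 1 library per factor, none of these differences could be tested. BACH2 −log10 q and JunD scores are on different scales and are compared only through ranks within their lists.

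**Figure D3:**
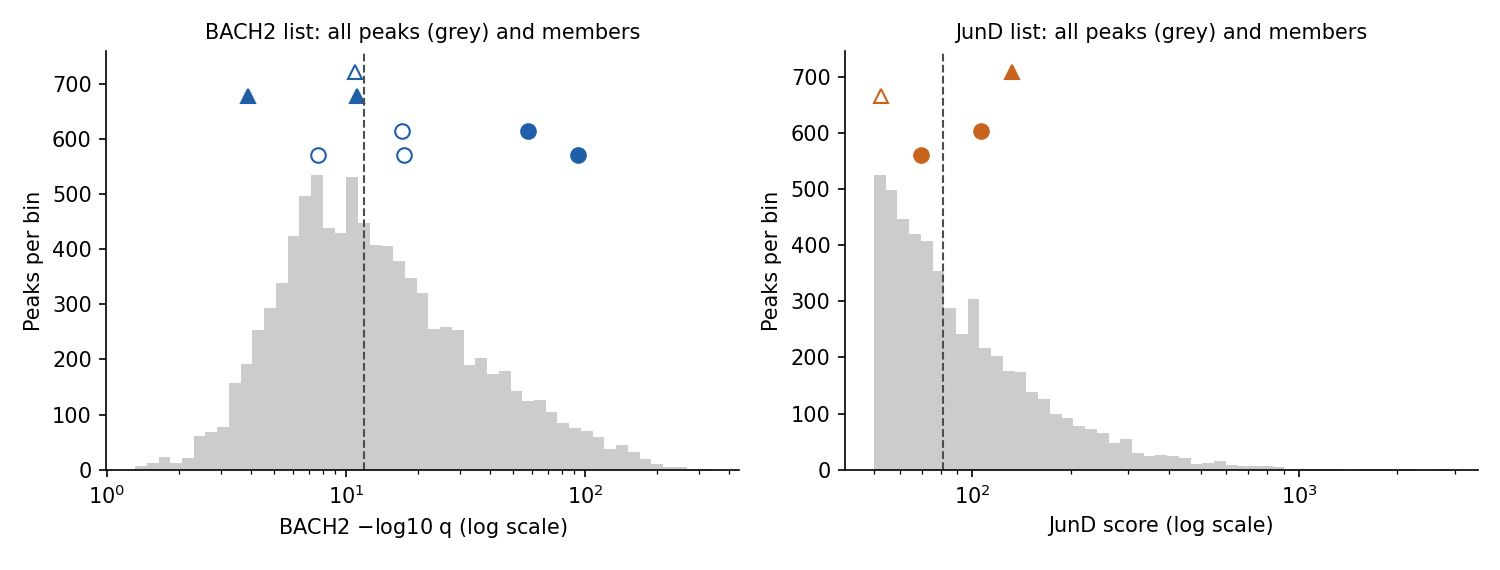
Distribution of −log10 q over 9133 BACH2 peaks (left) and of score over 5237 JunD peaks (right), in grey on log x axes, with the list median as a dashed line; marks above show the members, circles for the Th2 cytokine window and triangles for Gata3, filled where the other factor overlaps, and their height has no meaning. The 2 shared cytokine BACH2 peaks lie in the upper tail, the 3 Gata3 BACH2 peaks below the median, and the members of the JunD list on both sides of its median.

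Over both windows, a JunD peak overlapped 4 of the 8 BACH2 members, beside the 29.3% of the whole list, and a BACH2 peak overlapped 3 of the 4 JunD members, beside 48.8%. In the Th2 cytokine window the overlap took in 2 of 5 BACH2 peaks and 2 of 2 JunD peaks, and in the Gata3 window 2 of 3 and 1 of 2. These counts are too few to set apart from the whole lists, and the 2 shared BACH2 peaks at Gata3 share 1 JunD peak. Among the 300 BACH2 peaks at least as strong as the strongest cytokine peak, 173 met JunD.

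Both windows held more peaks than most stretches of equal length. BACH2 peaks numbered 31.2 per Mb in the Th2 cytokine window and 16.7 at Gata3, against 3.47 per Mb over all chromosomes up to their last peak. JunD peaks numbered 12.5 and 11.1 per Mb, against 1.99. When the chromosomes were divided into 16418 stretches of 160 kb, 75.9% held no BACH2 peak, and 2.06% held at least 5 BACH2 and 2 JunD peaks, as the Th2 cytokine window does. Of 14591 stretches of 180 kb, 4.78% held at least 3 BACH2 and 2 JunD peaks, as at Gata3. The windows were drawn around known genes and much of the genome holds no gene, so these shares describe the windows and test nothing.

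Promoter sequence of the named genes could be read for 4 of the 5, from a RefSeq table of GRCm38.p6 in which Rad50 has no entry and Il4 has 2. Its positions cannot be set beside the mm9 peaks, so none of these sequences is known to lie under a peak. The 5 promoters, each 250 bases before to 50 after the gene's start, were searched on both strands for the AP-1 motif TGANTCA. They were also searched for TGANNTCA, a form with 1 more base between the arms that takes in the cyclic AMP response element; a match to one motif cannot start at the same base as a match to the other. TGANTCA was in 0 of the 5, against 7.81% of 32851 promoters in the table. TGANNTCA was in 1 of the 5, against 14.1%. The match was in the Il4 promoter, 171 bases before the start, and that promoter is shown because it alone held a match. Its 250 bases before the gene's start (GRCm38.p6, chr11:53618666-53618915, minus strand) follow, with the match in capitals.
Il4 promoter: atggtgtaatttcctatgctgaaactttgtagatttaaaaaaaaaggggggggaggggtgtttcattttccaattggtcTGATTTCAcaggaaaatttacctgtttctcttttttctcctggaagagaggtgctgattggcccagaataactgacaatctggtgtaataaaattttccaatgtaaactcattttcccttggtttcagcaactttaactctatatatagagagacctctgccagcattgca
A match of letters does not show binding, and the absence of one says only that these letters are not in these stretches.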

How the data were processed

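ChIP-seq peak lists of BACH2 and JunD, 1 library each, were analysed. Per the submitters' processing notes, the aligner was Bowtie 0.12.9 and the build mm9, also called NCBIM37. Which peak caller version and which control were used, and whether libraries were pooled, is not given in the sources used here. The labels name 2 catalogue numbers for JunD antibodies without saying which was used. The deposited BACH2 list follows the narrowPeak layout, with a fold enrichment (a ratio), a −log10 p, a −log10 q and a summit for every peak. Its deposited integer score is 10 times the −log10 q without its decimals, which held for 100% of peaks. The deposited JunD list has 1 score for every peak, on a scale that is not stated. A peak in these lists is above a threshold that depends on depth, so a site without a peak may still be bound.

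Positions are mm9, counted from 1. Ranks used −log10 q for BACH2 and score for JunD, and the centre of a JunD peak stood for its missing summit. Peaks overlapped when they shared at least 1 bp. Every peak touching a window was named, and outside each window the nearest peak of each list on either side. The windows, genes and choices were made with earlier results of these data known. No statistical test was run. The code that counts overlaps was checked on slightly shifted copies of listed BACH2 peaks and on decoys placed far away. That check did not cover overlaps of only a few bases or the other overlap rules. The other Th2 pathway genes that were listed for this work needed mm9 annotation and were not analysed here. The software was Python 3.11.15 with pandas 2.3.3, numpy 2.4.6 and matplotlib 3.10.9.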

Additional observations from a re-analysis of the deposited data

How the results depend on the processing

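Widening the windows by 20 kb on each side gave 9 BACH2 and 6 JunD peaks, and narrowing them by 20 kb gave 7 and 4. Joining peaks of 1 list at most 1 kb apart gave 7 BACH2 and 4 JunD peaks. With the stronger 50% of each list, 4 BACH2 and 2 JunD peaks were left, of which 1 BACH2 and 1 JunD peak overlapped, those at 53468664 and 53468576 on chromosome 11. Asking for 50% of both peaks left 2 overlapped BACH2 peaks and 2 overlapped JunD peaks, because the narrow BACH2 peaks at Gata3 cover too little of their JunD peak. Asking instead for a summit and a centre at most 500 bp apart gave 4 and 3. The wider windows also gave 4 and 3, but of 9 BACH2 and 6 JunD peaks, where the main windows held 8 and 4. No paired analysis was possible because each factor had 1 library. The depth of the libraries is unknown.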
